A study of Rattus norvegicus with 7 samples.

Results

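The genes of respiratory complexes I and II were followed in the cerebellum of young rats whose mothers had been fed a diet poor in methyl donors. Genes were taken by symbol, as those beginning with Ndufa, Ndufb, Ndufc, Ndufs, Ndufv or Ndufaf together with Sdha, Sdhb, Sdhc and Sdhd. The rule found 42 genes, measured by 54 probes, among 15443 named genes on the array, of which 11966 were tested. These were 32 complex I subunit genes, 6 Ndufaf assembly factor genes and the 4 complex II subunit genes. The 32 follow the symbols and so include Ndufa4, now assigned to complex IV, and Ndufa10l1, a copy of Ndufa10. Probes of all 42 genes were well above background on all 7 arrays. A further 18 protein-coding genes that the rule finds in RefSeq, among them Ndufs6, Ndufa8, Ndufa13, Ndufaf2 and Ndufaf6, were not analysed here.

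The MDD group (methyl donor deficiency) held 3 female Wistar pups whose dams ate food deficient in vitamin B12 and folate and lowered in choline. The CTRL group held 4 female Wistar pups whose dams received standard chow. In both groups the diet began 1 month before pregnancy and lasted to weaning, and cerebellar RNA was taken at 21 days of age. The labels call the pups biological replicates without naming dams or litters, so p-values here measure the spread between pups.

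Complex I oxidises NADH in the mitochondrial matrix, passes the electrons through iron-sulfur clusters to ubiquinone and pumps protons across the inner membrane. Its matrix arm carries the NADH and ubiquinone sites, and its membrane arm does the pumping. Assembly factors of the Ndufaf kind help to build the complex and are not part of the finished enzyme. Complex II, succinate dehydrogenase, also belongs to the citric acid cycle. It passes electrons from succinate to ubiquinone and pumps no protons. Neurons depend heavily on the ATP made through this chain.

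The arrays had 74.1% to 79.6% of 58717 spots well above background and 0 saturated spots. They differed in brightness. The 75th percentile of processed signal was 1140 to 1669 on the MDD arrays (lowest in MDD 3) and 1305 to 2105 on the CTRL arrays. Values are log2 processed signal minus the 75th percentile of the array, so 0 is the 75th percentile and a difference of 1 is a doubling. Of 19991 genes and unnamed probes tested with limma, 4081 (20.4%) passed an adjusted p of 0.05, and 62.2% of them were higher in MDD pups (72.5% with normexp background correction). The 3 MDD arrays and CTRL 4 lay in the same row of the slide, and CTRL 1, 2 and 3 lay in the other row. The cerebellar markers of granule neurons and Purkinje cells were all measured, 7 of 7 and 6 of 6.

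Complex I subunit genes stood higher in the MDD cerebellum as a group. Of the 32 subunit genes, 23 rose and 0 fell at an adjusted p under 0.05, and the median change was 0.60 on the log2 scale (range -0.10 to 1.17). Complex II was split, with Sdhb and Sdhc higher and Sdha and Sdhd short of the threshold. Among the 6 Ndufaf genes, Ndufaf3 and Ndufaf8 rose, and the median change was 0.060. Counted over all 42 genes, 27 rose, which is 64.3%, against 12.7% of all features tested that rose, and 0 fell, against 7.72%. In 32 of the 42 genes each MDD value was above each CTRL value, against 20.1% of all features tested, and in Ndufaf4 each was below (36.5% of all features separated in either direction). The mean was higher in MDD for 38 of the 42, against 47.5% of all features. The median change was 0.55 over the 42 genes and -0.03 over all features.

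**Figure D1:**
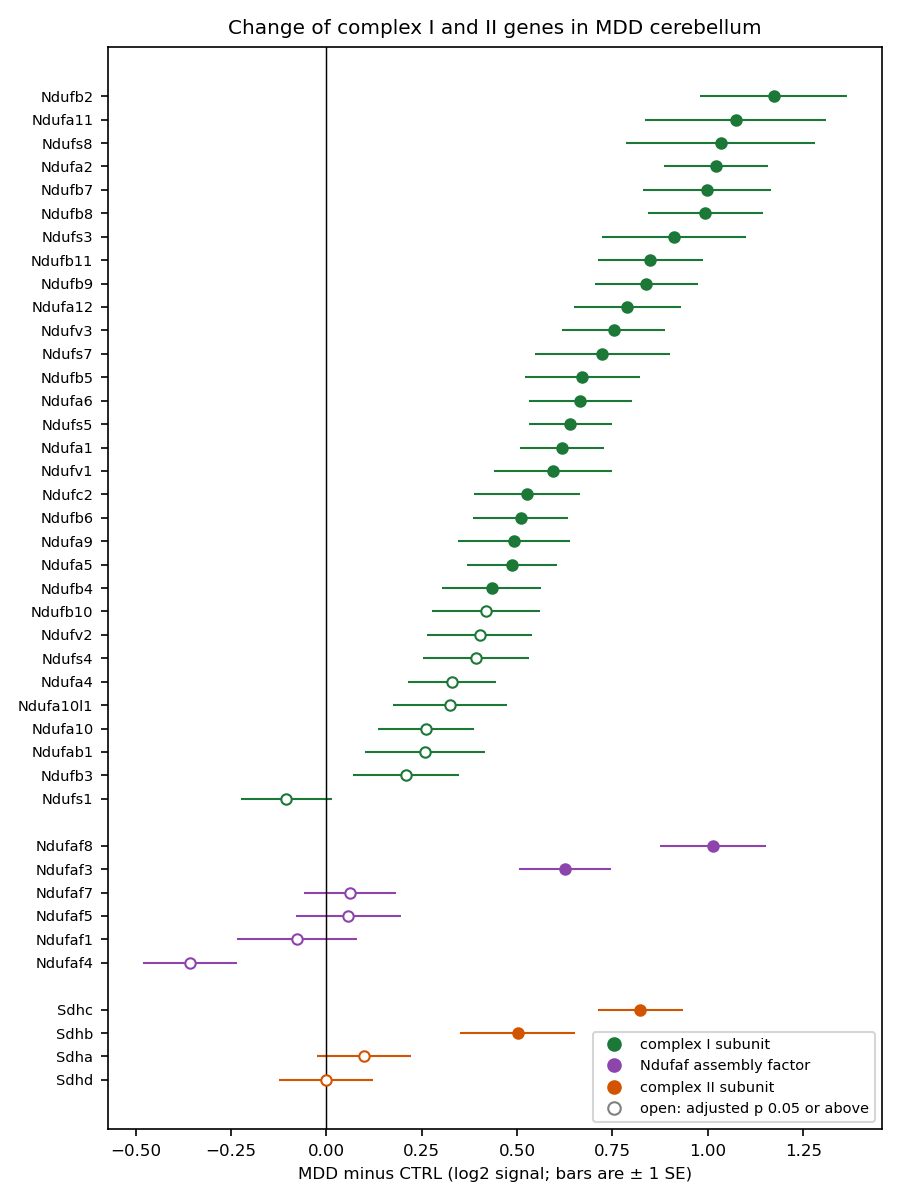
Difference between MDD (n = 3) and CTRL (n = 4) on the log2 scale for the genes of both complexes (1 gene is not drawn), ordered by size within complex I subunits, Ndufaf assembly factors and complex II subunits; bars are 1 standard error either way. Filled points passed an adjusted p of 0.05 and all lie to the right of 0, among them 2 of 6 Ndufaf genes and 2 of 4 complex II genes.

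The subunit genes were high on each MDD array. Set against the CTRL mean of each gene, the median subunit gene was at 0.64 in MDD 1, 0.45 in MDD 2 and 0.76 in MDD 3, against -0.052, 0.11, -0.0073 and -0.050 in CTRL 1 to 4. For the Ndufaf genes the same median was 0.26 in MDD 1, -0.039 in MDD 2 and 0.040 in MDD 3, against -0.082 to 0.11 in the CTRL pups. Within each array, the subunit median exceeded the Ndufaf median by 0.39, 0.49 and 0.72 in the MDD pups, against -0.043 to 0.032 in the CTRL pups. The CTRL values are centred on 0 by construction. MDD 3 was the highest MDD array for 21 of the 32 subunit genes and MDD 2 the lowest for 22. No p-value was computed for these medians, since they run over genes chosen as a list.

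**Figure D2:**
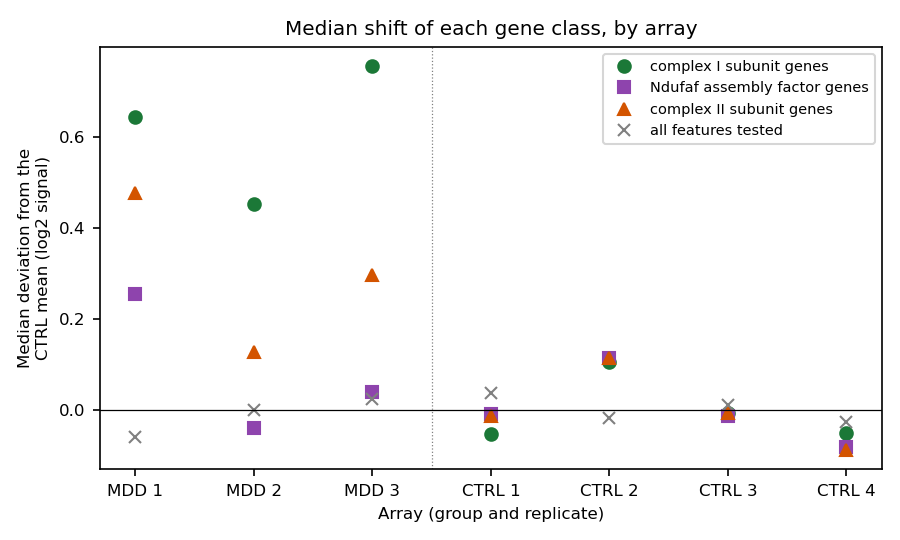
Median deviation from the CTRL mean (log2 signal) of the complex I subunit, Ndufaf and complex II genes and of all features tested, by array. The subunit medians of the 3 MDD arrays, 0.64, 0.45 and 0.76, lie above those of the 4 CTRL arrays, and the medians of all features stay near 0.

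The share of subunit genes that passed the test depended on scaling, and the position of the arrays on the slide could not be fully separated from diet. With quantile normalization 9 of the 32 subunit genes rose (median 0.19), and the authors' deposited table gave 10 (median 0.25), while 10.5% and 12% of all features rose. Quantile normalization ended the calls of Ndufa1, Ndufa5, Ndufa6, Ndufa9, Ndufb4, Ndufb5, Ndufb6, Ndufb9, Ndufc2, Ndufs5, Ndufs7, Ndufv1 and Ndufv3, among others, and the authors' deposited table ended the same ones apart from Ndufb9. The subunit median exceeded the Ndufaf median by 0.54 with the main scaling, by 0.11 with quantile normalization, by 0.17 in the authors' deposited table and by 0.26 once a trend with gene length and signal was removed. Leaving out 1 pup gave 10 rising subunit genes without CTRL 4, 11 without CTRL 3, 12 without CTRL 1 and 14 without CTRL 2. Of all features, 4%, 5.42%, 6.97% and 6.74% then rose, in that order. Without MDD 1, 2 and 3 in turn, 18, 26 and 18 subunit genes and 8.86%, 14.5% and 8.78% of all features rose. With the array row as a covariate, limma called 0 of the 42 genes and 1 of all features. An unadjusted p under 0.05 was reached by 27 of the 42, against 4072 of 19991 features. The median subunit change in that fit was 0.62. Ndufa2, Ndufa12, Ndufb2, Ndufb7, Ndufb8, Ndufaf8 and Sdhc passed in 15 of 18 alternatives, among them each that left out 1 pup. Within the row that held both groups, all 3 MDD values were above the CTRL 4 value for 31 of 32 subunit genes. The same was so for 4 of 6 Ndufaf genes and 3 of 4 complex II genes. CTRL 4 was the only CTRL pup of that row, so all these counts rest on its values. The same count over all features was not made, so how unusual these counts are cannot be judged. The median change in that row was 0.60 over the 42 genes and 0.012 over all features.

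Several nuclear genes encode the catalytic core of complex I, and among them Ndufv1, Ndufs3, Ndufs7 and Ndufs8 rose. Ndufs8, which holds iron-sulfur clusters on the path to ubiquinone, rose 2.05-fold (log2 1.03 ± 0.25 SE, adjusted p = 0.0265). Its values were 1.57, 1.70 and 2.64 in the MDD pups, against 0.82, 1.04, 1.06 and 0.83 in the CTRL pups, so MDD 3 stood well above the other MDD pups. Ndufs3, a subunit of the ubiquinone-reducing module, rose 1.88-fold (adjusted p = 0.018). Ndufs7, next to the ubiquinone site, rose 1.65-fold (adjusted p = 0.0274), and Ndufv1, which binds NADH and FMN, rose 1.51-fold (adjusted p = 0.033).

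The core genes Ndufs1 and Ndufv2 did not pass. Ndufs1, the largest subunit and a carrier of several iron-sulfur clusters, measured 2.44, 2.30 and 2.33 in the MDD pups, against 2.47, 2.57, 2.51 and 2.29 in the CTRL pups. The groups overlapped, and the difference was -0.10 (95% interval -0.38 to 0.17, adjusted p = 0.542). Ndufs1 was the only subunit gene with a mean lower in MDD, and its difference ran from -0.33 with quantile normalization (adjusted p = 0.0702) and -0.24 in the authors' deposited table (adjusted p = 0.106) to 0.067 with the array row as a covariate. Ndufv2, the iron-sulfur partner of Ndufv1, differed by 0.40 without passing (adjusted p = 0.0696).

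Accessory subunits surround this core. Of the 7 measured in the matrix arm, 6 rose, with a median of 0.67. Ndufa2, a small thioredoxin-fold subunit of the NADH-oxidising module, measured 2.95, 2.59 and 2.77 in the MDD pups, against 1.76, 1.93, 1.68 and 1.62 in the CTRL pups. The groups did not overlap, and the 2.03-fold rise had a log2 size of 1.02 ± 0.14 (SE, adjusted p = 0.00964). Ndufa12, which takes the place of the assembly factor Ndufaf2 on the matrix arm, measured 3.48, 3.16 and 3.59 in the MDD pups, against 2.56, 2.77, 2.53 and 2.61 in the CTRL pups (1.73-fold, adjusted p = 0.0121). Ndufv3, a small subunit beside Ndufv1, measured 4.67, 4.52 and 4.84 in the MDD pups, against 3.78, 4.06, 4.03 and 3.81 in the CTRL pups (1.69-fold, adjusted p = 0.0122). In each of these 3 genes every MDD pup exceeded every CTRL pup. A second Ndufv3 probe differed by 0.84, and the third and dimmest by 0.33 without passing.

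Ndufa6, an accessory subunit that binds the mitochondrial acyl carrier protein, rose 1.59-fold. Ndufa5 rose 1.40-fold and Ndufa9, an accessory subunit with a nucleotide-binding fold near the ubiquinone site, 1.41-fold. The direction for Ndufa5 turned with quantile normalization, to -0.036. Ndufs4, whose loss causes Leigh syndrome in humans, did not pass. Its brighter probe measured 2.51, 2.09 and 2.29 in the MDD pups, against 2.06, 1.94, 1.87 and 1.76 in the CTRL pups (0.39, adjusted p = 0.0778). Its dimmer probe differed the other way, by -0.48 (adjusted p = 0.135), so the direction for Ndufs4 depended on the probe.

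In the membrane arm 12 of 15 measured genes rose, with a median of 0.64. Ndufb2 had the largest change of all 42 genes. It measured 4.82, 4.87 and 5.51 in the MDD pups, against 3.64, 4.02, 3.98 and 3.93 in the CTRL pups (2.25-fold, log2 1.17 ± 0.19 SE, adjusted p = 0.0107). Ndufb8, often used as a protein marker of complex I assembly, measured 6.45, 6.47 and 6.93 in the MDD pups, against 5.53, 5.76, 5.59 and 5.61 in the CTRL pups (1.99-fold, adjusted p = 0.0103). Ndufb7, a subunit on the intermembrane-space face, measured 3.57, 3.62 and 4.15 in the MDD pups, against 2.61, 2.91, 2.80 and 2.81 in the CTRL pups (adjusted p = 0.0108). MDD 3 was the highest sample for Ndufb2, Ndufb8 and Ndufb7, and no MDD value reached into the CTRL range.

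Ndufb9, a membrane-arm subunit of the LYR family, measured 5.19, 4.94 and 5.34 in the MDD pups, against 4.41, 4.40, 4.26 and 4.20 in the CTRL pups (1.79-fold, adjusted p = 0.0106). Ndufb11, an X-linked single-pass membrane subunit, measured 4.23, 4.01 and 4.46 in the MDD pups, against 3.32, 3.49, 3.39 and 3.33 in the CTRL pups (1.80-fold, adjusted p = 0.0106). These differences of 0.84 and 0.85 on the log2 scale were several times the spread within either group. Ndufs5, on the intermembrane-space face, measured 5.04, 4.94 and 5.12 in the MDD pups, against 4.35, 4.43, 4.34 and 4.44 in the CTRL pups (1.56-fold, adjusted p = 0.011). Ndufa1, a small X-linked membrane subunit needed for assembly, measured 4.71, 4.54 and 4.54 in the MDD pups, against 3.96, 4.04, 3.92 and 4.00 in the CTRL pups (1.53-fold, adjusted p = 0.0121). Ndufs5 and Ndufa1 had the tightest groups of the 42 genes, with an SD of at most 0.097 in either group. Their differences depended on scaling: with quantile normalization they were 0.14 for Ndufs5 (adjusted p = 0.379) and 0.13 for Ndufa1 (adjusted p = 0.468), and the authors' deposited table gave Ndufs5 0.20 and Ndufa1 0.16, neither passing.

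Among the other membrane-arm genes, Ndufa11 rose 2.10-fold (adjusted p = 0.0212), with MDD 3 at 2.95 and the other MDD pups at 1.92 and 2.11, against 1.12 to 1.42 in the CTRL pups. Ndufb5 rose 1.59-fold, Ndufc2 1.44-fold, Ndufb6 1.42-fold and Ndufb4 1.35-fold. The direction for Ndufb4 turned to -0.083 with quantile normalization. Ndufb10 differed by 0.42 (adjusted p = 0.0689), and by -0.060 with quantile normalization, while its second, dimmer probe differed by 0.47 and passed over probes (adjusted p = 0.0398). Ndufb3 measured 4.78, 4.57 and 4.30 in the MDD pups, against 4.39, 4.39, 4.31 and 4.29 in the CTRL pups, so the groups overlapped (0.21, adjusted p = 0.291).

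Ndufa10, which has a nucleoside kinase fold, and its copy Ndufa10l1 share sequence, and their signals are uncertain as measures of separate genes. Ndufa10 measured 2.53, 2.20 and 2.19 in the MDD pups, against 1.98, 2.09, 2.08 and 2.04 in the CTRL pups (0.26, adjusted p = 0.163). Ndufa10l1 measured 3.57, 3.48 and 4.03 in the MDD pups, against 3.38, 3.39, 3.36 and 3.34 in the CTRL pups (0.32, adjusted p = 0.145). Neither passed, although neither pair of groups overlapped. Of the 42 genes, 15 have at least 1 annotated pseudogene, the most being 7 for Ndufb4 and 5 for Ndufaf4, and how far such copies add to a probe's signal was not tested.

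A pair of genes with the family name were listed apart from both arms here, which is a choice of grouping. Ndufa4, now assigned to complex IV (cytochrome c oxidase), measured 5.15, 4.95 and 5.21 in the MDD pups, against 4.82, 4.79, 4.71 and 4.76 in the CTRL pups. The groups did not overlap, but the difference of 0.33 did not pass (adjusted p = 0.0741), and its sign turned to -0.21 with quantile normalization. Ndufab1 is the mitochondrial acyl carrier protein, which also serves fatty acid and lipoic acid synthesis. Its bright probe measured 3.40, 3.14 and 3.51 in the MDD pups, against 2.77, 3.15, 3.26 and 3.18 in the CTRL pups (0.26, adjusted p = 0.256). Its dim probe measured -4.23, -3.36 and -3.79 in the MDD pups, against -2.90, -2.96, -2.81 and -2.95 in the CTRL pups, which is a difference of -0.89 (adjusted p = 0.0206 over probes). No direction can therefore be given for Ndufab1.

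Of the Ndufaf genes, 2 of 6 rose. Ndufaf8, which in human cells stabilises its partner Ndufaf5, measured 3.12, 3.03 and 3.37 in the MDD pups, against 2.02, 2.37, 2.15 and 2.10 in the CTRL pups (2.02-fold, log2 1.01 ± 0.14 SE, adjusted p = 0.00964). Ndufaf5, which in human cells modifies an arginine of Ndufs7, measured 1.76, 1.30 and 1.49 in the MDD pups, against 1.51, 1.51, 1.44 and 1.38 in the CTRL pups (0.058, 95% interval -0.26 to 0.37, adjusted p = 0.778). The partners were thus measured with a rise for Ndufaf8 and overlapping groups for Ndufaf5.

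Ndufaf3 and Ndufaf4 bind each other and help to assemble the ubiquinone-reducing module. Ndufaf3 measured 2.50, 2.25 and 2.33 in the MDD pups, against 1.66, 1.87, 1.75 and 1.66 in the CTRL pups (1.54-fold, adjusted p = 0.015), and its adjusted p was 0.054 without CTRL 4. Ndufaf4 measured -1.37, -1.13 and -1.03 in the MDD pups, against -0.87, -0.74, -0.82 and -0.85 in the CTRL pups. It was the sole gene of the 42 in which every MDD pup was below every CTRL pup, and its difference of -0.36 did not pass (adjusted p = 0.0712). All 4 Ndufaf4 probes differed in that direction, by -0.29 to -0.73, none passing. Once a trend with gene length and signal was removed, the Ndufaf3 difference was 0.12 (adjusted p = 0.551) and no longer passed, and the Ndufaf4 difference was -0.56 (adjusted p = 0.0271).

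The remaining Ndufaf genes overlapped between groups. Ndufaf1, which joins Ecsit and Acad9 in building the membrane arm, measured -4.17, -4.00 and -4.02 in the MDD pups, against -3.81, -3.74, -4.16 and -4.23 in the CTRL pups (-0.077, adjusted p = 0.744). Ndufaf7, which in human cells is a protein methyltransferase acting on complex I, measured -1.16, -1.43 and -1.32 in the MDD pups, against -1.33, -1.27, -1.38 and -1.46 in the CTRL pups (0.062, adjusted p = 0.728). Neither sign was stable, since Ndufaf1 turned to 0.070 with quantile normalization and Ndufaf7 to -0.048 once the length and signal trend was removed. Among assembly factors with other names, 1 of 9 measured rose and 0 fell (median 0.23), against 12.7% and 7.72% of all features tested. Ecsit rose 1.48-fold (adjusted p = 0.0152, and 0.0652 with quantile normalization), while Timmdc1, Dmac2 and Tmem186 differed by 0.34, 0.42 and 0.23 without passing.

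**Figure D3:**
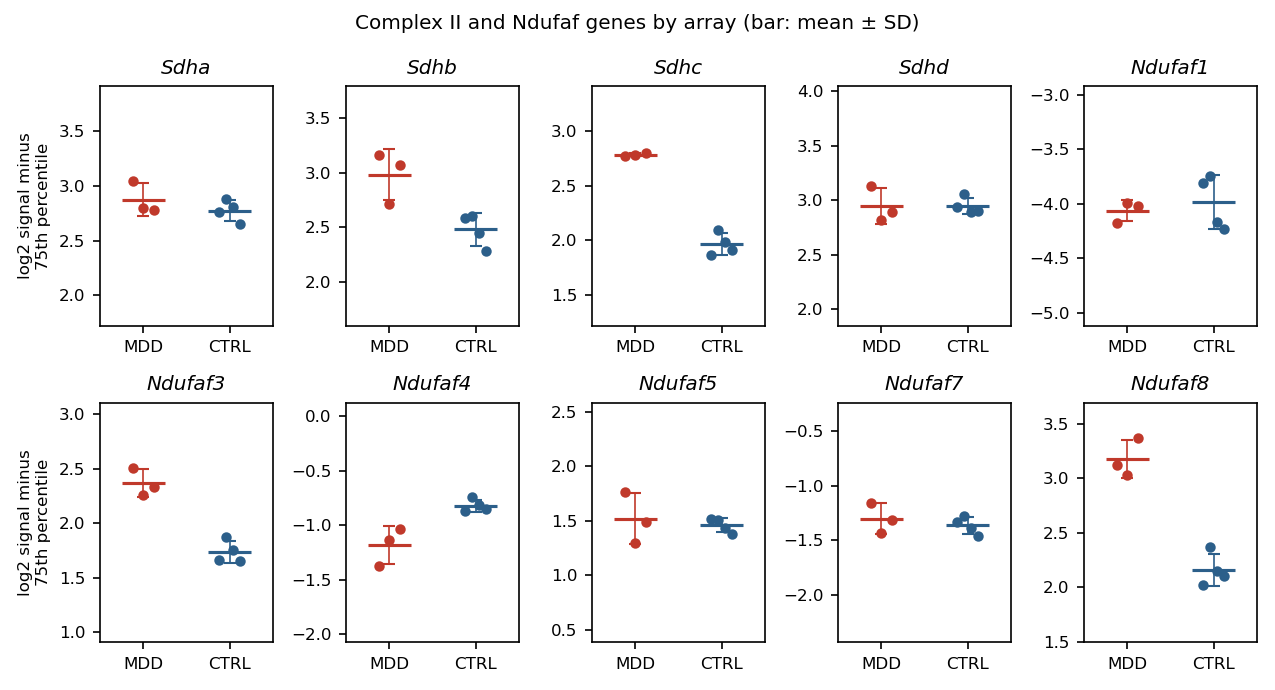
Log2 signal minus the array's 75th percentile for the 4 complex II genes and the 6 Ndufaf genes in each MDD (left, n = 3) and CTRL (right, n = 4) pup; bars are the mean ± SD, and each panel has its own position on the axis. The groups do not overlap for Sdhb, Sdhc, Ndufaf3 and Ndufaf8, higher in MDD, and for Ndufaf4, lower in MDD without passing the test.

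Complex II has a matrix part, made of Sdha and Sdhb, and a membrane anchor, made of Sdhc and Sdhd. Sdhc, which with Sdhd binds heme and ubiquinone in the membrane, measured 2.78, 2.78 and 2.80 in the MDD pups, against 1.86, 2.09, 1.98 and 1.91 in the CTRL pups (1.77-fold, log2 0.82 ± 0.11 SE, adjusted p = 0.00964). Sdhd measured 3.13, 2.82 and 2.89 in the MDD pups, against 2.94, 3.06, 2.90 and 2.90 in the CTRL pups (95% interval of the difference -0.28 to 0.28, adjusted p = 0.997). The Sdhd difference was -0.28 with quantile normalization (adjusted p = 0.129), -0.21 in the authors' deposited table and -0.31 with the length and signal trend removed (adjusted p = 0.091). The groups separated for Sdhc and overlapped for Sdhd, its partner in the anchor. Sdhb, the iron-sulfur subunit, measured 3.16, 2.71 and 3.07 in the MDD pups, against 2.59, 2.60, 2.45 and 2.28 in the CTRL pups (1.42-fold, adjusted p = 0.0482). Sdha, the flavoprotein that oxidises succinate, measured 3.05, 2.80 and 2.78 in the MDD pups, against 2.76, 2.88, 2.80 and 2.65 in the CTRL pups (0.099, 95% interval -0.18 to 0.38, adjusted p = 0.585). Sdhb lost its call with quantile normalization, in the authors' deposited table and without any 1 pup other than MDD 2, whereas Sdhc kept it in each of these.

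The difference between complex II genes was tested within arrays. Sdhc minus Sdhd was -0.36, -0.039 and -0.094 in the MDD pups, against -1.07, -0.965, -0.915 and -0.996 in the CTRL pups, so the ratio of Sdhc to Sdhd was higher by 0.82 on the log2 scale in the MDD pups. The 2-sided exact permutation p was 0.0571, and 0.0857 after adjustment over the 6 pairs. It is 2 times the smaller tail probability, and 0.0571 is the smallest value this form can take for 3 against 4 pups. The pairs Sdhc and Sdha (0.72), Sdhb and Sdhd (0.50) and Sdhb and Sdha (0.40) also separated fully, with the same exact p of 0.0571. Sdhc against Sdhb (0.32) and Sdha against Sdhd (0.0996) did not separate (exact p = 0.114 each). Of the complex II assembly factors measured, Sdhaf1, which helps to insert iron-sulfur clusters into Sdhb, rose 1.65-fold (adjusted p = 0.0108), though it no longer passed with the length and signal trend removed (0.090, adjusted p = 0.564), and Sdhaf2, which attaches flavin to Sdha, differed by 0.050 (adjusted p = 0.831).

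Promoters were compared because so many subunit genes moved together. RefSeq promoter sequences of build GRCr8, from 250 bases before to 50 after the start, were matched for 39 of the 42 genes. Both strands were searched for 3 motifs of factors known to act on nuclear genes of the respiratory chain. These were the palindromic NRF1 core, the ETS core CCGGAAG bound by GABP, and the YY1 core AAGATGGC. The NRF1 core was in 9 of 39 promoters (23.1%), against 8.94% of 9784 promoters of tested genes. The ETS core was in 10 (25.6%), against 15.9%, and the YY1 core in 8 (20.5%), against 4.83%. At least 1 of the motifs was in 24 of the 39 (61.5%), against 25.9%. All 8 YY1 matches lay at or after the start base, at positions 2 to 26 counted from 0, whereas 50.2% of 482 such matches in tested genes did. The YY1 core was in 7 of the 25 promoters of genes that rose and 1 of the 14 others, the ETS core in 7 and 3, and the NRF1 core in 6 and 3. A match is a run of letters and not a measured binding site.

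The promoters of 4 genes show the range, with motifs in capitals and each sequence given on the strand of the gene. Ndufa2 (chr18:28631835-28632134, minus strand) and Ndufaf8 (chr10:105879658-105879957, plus strand) had the smallest p of their classes and hold an ETS core, on the other strand in Ndufa2, and a YY1 core. Sdhc (chr13:86097976-86098275, minus strand), which rose, holds a YY1 core right after its start. Sdhd (chr8:59850592-59850891, minus strand), which did not pass, holds 2 ETS cores on the other strand and no YY1 core.
Ndufa2: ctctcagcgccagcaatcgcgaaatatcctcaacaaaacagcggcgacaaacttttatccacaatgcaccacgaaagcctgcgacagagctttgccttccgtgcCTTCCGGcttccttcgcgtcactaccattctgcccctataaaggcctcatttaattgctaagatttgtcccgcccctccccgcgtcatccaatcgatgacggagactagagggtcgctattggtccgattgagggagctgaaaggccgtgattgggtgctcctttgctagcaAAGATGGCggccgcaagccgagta
Ndufaf8: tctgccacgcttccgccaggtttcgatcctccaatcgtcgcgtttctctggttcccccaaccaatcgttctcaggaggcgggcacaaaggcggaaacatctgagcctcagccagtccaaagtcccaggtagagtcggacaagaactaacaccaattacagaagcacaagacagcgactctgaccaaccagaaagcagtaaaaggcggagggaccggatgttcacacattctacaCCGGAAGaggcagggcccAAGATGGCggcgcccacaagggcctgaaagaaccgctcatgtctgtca
Sdhc: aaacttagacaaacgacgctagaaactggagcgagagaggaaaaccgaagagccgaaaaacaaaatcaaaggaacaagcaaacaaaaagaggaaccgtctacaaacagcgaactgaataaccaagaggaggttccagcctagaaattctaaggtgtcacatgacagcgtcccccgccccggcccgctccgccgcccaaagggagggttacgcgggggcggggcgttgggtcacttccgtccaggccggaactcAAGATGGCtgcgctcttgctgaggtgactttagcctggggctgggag
Sdhd: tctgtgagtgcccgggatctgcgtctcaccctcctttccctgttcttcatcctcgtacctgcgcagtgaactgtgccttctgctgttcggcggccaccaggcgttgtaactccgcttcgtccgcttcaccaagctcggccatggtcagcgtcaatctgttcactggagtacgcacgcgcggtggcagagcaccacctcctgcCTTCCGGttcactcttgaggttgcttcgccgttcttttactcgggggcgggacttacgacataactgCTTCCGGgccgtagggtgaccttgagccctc

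The factors themselves were measured among 12 regulators of mitochondrial genes, of which 0 rose and 2 fell (median -0.31). Among all features tested, 12.7% rose and 7.72% fell. Gabpa, a subunit of GABP, fell by 0.57 on the log2 scale (adjusted p = 0.0219), and Tfb2m, a mitochondrial transcription factor, fell by 0.51 (adjusted p = 0.0186). Both calls were lost when CTRL 2, CTRL 3 or CTRL 4 was left out, and that of Gabpa also without MDD 1. Of the other factors with a motif above, Yy1 differed by -0.37 (adjusted p = 0.108), Nrf1 by -0.071 (adjusted p = 0.787) and Gabpb1, the partner of Gabpa, by -0.25 (adjusted p = 0.153), none passing. Ppargc1a, a coactivator of mitochondrial biogenesis, differed by -0.65 and Esrra by 0.35, neither passing.

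Change also varied with gene length. Among the 42 genes, Spearman's rho between change and genomic length was -0.48, among the 32 subunit genes -0.46, and among all 11966 named genes -0.40. Between change and mean signal it was 0.19, -0.088 and 0.23 in that order. The median gene's mean signal was 3.20 among the 42 genes, 3.73 among the subunit genes and -1.42 among all named genes. These are descriptions across genes of the same 7 arrays. The 42 genes are short, with a median length of 7408 bp, against 20850 bp for all named genes. Of the 14 shortest, 11 rose (median 0.76), of the middle 14, 10 rose (median 0.52), and of the 14 longest, 6 rose (median 0.40). Ndufaf3 at 1833 bp and Ndufaf8 at 2152 bp, the Ndufaf genes that rose, are the shortest of that class. After a loess trend of change on length and brightness was removed from each array, 7 of the 42 genes rose, 5 of them complex I subunits, and 1, Ndufaf4, fell, while 6.54% of named genes rose. Those 7 were Ndufa2, Ndufa12, Ndufb2, Ndufb7, Ndufb8, Ndufaf8 and Sdhc. The median subunit change was then 0.25 and the median Ndufaf change -0.0083.

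**Figure D4:**
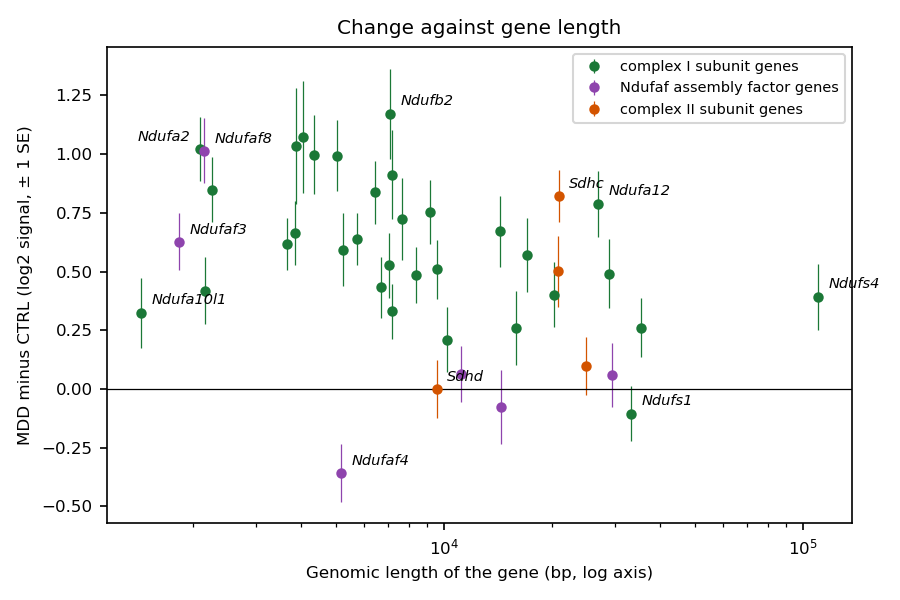
Difference between MDD and CTRL (log2 signal, ± 1 SE) against genomic length in bp on a log axis, for the 42 genes coloured by class, with 11 of them named. Short genes lie higher: the median change is 0.76 in the shortest 14 and 0.40 in the longest 14, and Ndufa12 and Sdhc are long genes that rose.

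**Figure D5:**
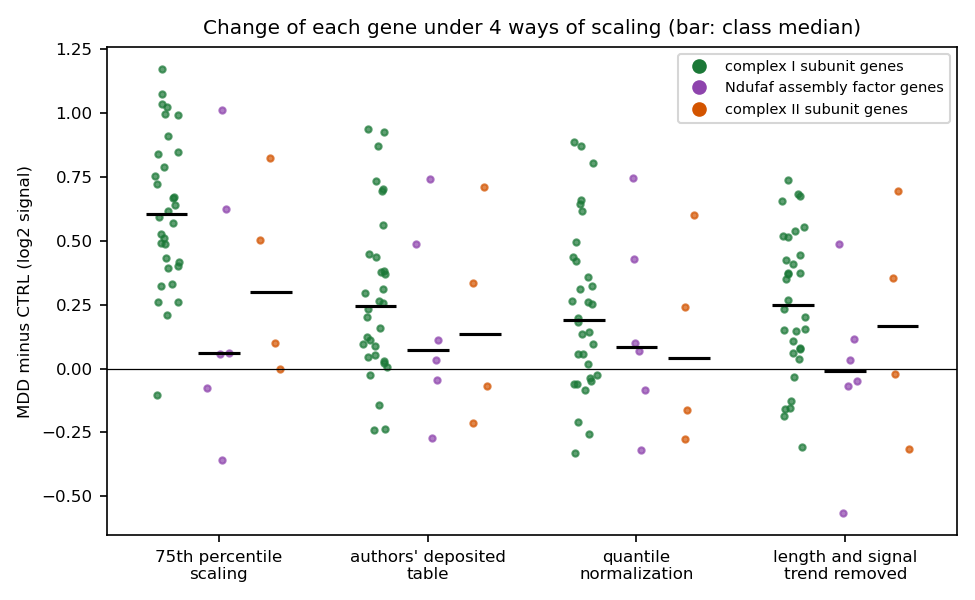
Difference between MDD and CTRL (log2 signal) for each gene with the array's 75th percentile as scale, in the authors' deposited table, with quantile normalization and with the length and signal trend removed; black bars are class medians. The subunit median is 0.60, 0.25, 0.19 and 0.25 in that order and stays above the Ndufaf median in each, while the Ndufaf median is -0.0083 in the last.

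The pathways that supply cofactors to these complexes were measured alongside. For comparison, 12.7% of all features tested rose and 7.72% fell. In mitochondrial iron-sulfur cluster synthesis 5 of 12 measured genes rose and 0 fell (median 0.41). Glrx5, a glutaredoxin that carries clusters, rose 1.68-fold (adjusted p = 0.033), the ferredoxin Fdx2 1.53-fold (adjusted p = 0.0226), Isca2 1.49-fold (adjusted p = 0.0176) and Bola3 1.37-fold (adjusted p = 0.043). Isca2 and Bola3 act late, when clusters are handed to their targets. In the synthesis of ubiquinone, the electron acceptor of both complexes, 5 of 12 rose and 0 fell (median 0.34). Among them Coq4 rose 1.55-fold (adjusted p = 0.034), Coq2, which joins the ring to its tail, 1.49-fold (adjusted p = 0.0222), Coq5 1.42-fold (adjusted p = 0.0316) and the hydroxylase Coq7 1.37-fold (adjusted p = 0.0454). Several of these calls were lost under other settings. Quantile normalization ended those of Glrx5 (adjusted p = 0.0569), Bola3 (adjusted p = 0.0929), Coq5 (adjusted p = 0.0543) and Coq7 (adjusted p = 0.0509), normexp those of Coq4 (adjusted p = 0.0529) and Coq7 (adjusted p = 0.0608), and removal of the length and signal trend those of Glrx5, Fdx2, Isca2, Bola3, Coq5 and Coq7. With 1 pup left out, Bola3 and Coq7 passed in no fit, and Coq5 passed only without MDD 2. Glrx5 passed only without CTRL 3 or MDD 2, and Coq4 only without MDD 1 or MDD 2. Fdx2, Isca2 and Coq2 lost their calls in some of these fits. The complex I subunits encoded by mitochondrial DNA were not analysed here.

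Markers of other cells differed between the groups too, in a series where 12.7% of all features tested rose and 7.72% fell. Of 7 microglial markers 6 rose and 1, Cx3cr1, fell, and their summed level, in units of the array's 75th percentile, was 12.3 to 17.4 in the MDD pups, against 8.48 to 9.03 in the CTRL pups. Of 7 granule neuron markers 3 fell and 0 rose, with sums of 69.4 to 77.3 in the MDD pups, against 75.01 to 84.2 in the CTRL pups. Of 6 Purkinje cell markers 2 fell (133 to 152 in MDD, 127 to 142 in CTRL). Of 6 oligodendrocyte markers 1 fell (233 to 361 in MDD, 246 to 266 in CTRL), and of 6 astrocyte markers 1 rose (55.8 to 74.8 in MDD, 66.1 to 74.7 in CTRL). Of 4 endothelial markers 1 rose (2.95 to 3.82 in MDD, 2.35 to 2.72 in CTRL), while 0 of 4 choroid plexus markers, 0 of 3 erythrocyte markers and 0 of 4 meningeal markers passed. Choroid plexus markers summed to 113 to 272 in the MDD pups, against 96.4 to 132 in the CTRL pups, erythrocyte markers to 45.4 to 142 in the MDD pups, against 31.8 to 55.4 in the CTRL pups, and meningeal markers to 10.1 to 10.6 in the MDD pups, against 6.68 to 11.9 in the CTRL pups. The part of these cell types in the complex I and II values was not tested, and in whole tissue a change in the number of cells of a type and a change in RNA per cell cannot be told apart.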

How the data were processed

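Cerebellar RNA of 7 pups, labelled with 1 dye (Cy3), was measured on Agilent rat arrays of 1 slide. Per the file headers, spots were quantified with Feature Extraction 10.7.3.1, and the deposited intensity columns are its processed, median and background signals. The authors' deposited table gives a normalized score per probe, used as an alternative. Its mean log2 values correlated at 0.999994 with those of the raw median signal, and its column medians ran from 311 to 319. How it was normalized is not stated. Control and outlier spots were left out, the log2 processed signal minus the array's 75th percentile was averaged per probe, and probes were kept where 3 or more of 7 arrays showed them well above background (22255 of 30367). Accessions were named through RefSeq (18355 probes), and the brightest probe stood for a gene. limma 3.58.1 in R 4.3.3 compared MDD with CTRL, with Benjamini-Hochberg adjustment over 19991 features. There were 5 residual degrees of freedom, so the number of arrays limits the precision. The fit was tested on simulated data.

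Alternatives changed the scaling, background correction (normexp with offset 50, on median signals in place of the planned mean signals), filter, probe rule, array row, replicate number or gene length trend, or left out 1 pup. The replicate numbers did not pair the pups (correlations of deviations 0.09, -0.18 and 0.22). The members and lists were chosen with earlier results of these data known. Values per pup are given for all Sdh and Ndufaf genes, the 10 subunit genes with the smallest p, the 5 with the largest, Ndufa4, and genes whose probes disagree in sign. From each context list up to 4 genes with the smallest p are named. Outside that rule, Yy1, Gabpb1 and Nrf1 are named as factors of the motifs. Ndufs8 and Ndufa11 were added after their values were seen. Results for 1 member gene and for some forebrain markers are not reported here.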

Additional observations from a re-analysis of the deposited data

Results flagged for a closer look

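Of 83 results examined for a CTRL array far from the rest, 2 stood out, and chance alone would mark about 1 in 20. For Timmdc1, a complex I assembly factor, CTRL 2 measured -1.09 and the other CTRL pups -1.45 to -1.41, a gap of 0.878 of the group's range. For the ferredoxin Fdx2, CTRL 1 measured 0.997 and the others 1.19 to 1.20, a gap of 0.943 of the range. No gene of complexes I and II stood out in this way.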

How the results depend on the processing

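Median scaling, normexp, the stricter filter and averaging probes left 22 or 23 rising subunit genes, 2 Ndufaf and 2 complex II genes. Subunit, Ndufaf and complex II medians stayed above 0 except for the Ndufaf median, at -0.0083 without the length trend and -0.016 without MDD 1. Quantile normalization gave 9 rising subunit and 1 complex II genes, medians of 0.19 and 0.041 for these classes, and a subunit minus Ndufaf gap of 0.11, against 0.54. The authors' deposited table gave 10 and 1, medians of 0.25 and 0.13 and a gap of 0.17. Removing the length and signal trend gave 5 subunit, 1 Ndufaf and 1 complex II genes, medians of 0.25 and 0.17, a gap of 0.26 and 1339 calls among 11966 named genes. Without a filter, 1593 features, 12 subunit and 1 complex II genes were called. With array row as a covariate 1 feature and 0 members passed, and in the row with both groups 7 features and 0 members, with a complex II median of 0.46 in both. The replicate block, on numbers that do not pair the pups, gave 0 calls of 19991 with limma, 6159 at an unadjusted p under 0.05, 26 of them members. Leaving out 1 pup gave 1022 to 5234 features, 10 to 26 subunit genes, 1 to 2 Ndufaf and 1 to 2 complex II genes, with medians of 0.52 to 0.65, -0.016 to 0.15 and 0.21 to 0.39, and a gap of 0.45 to 0.61. The cause of these shifts was not tested.

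Signs turned as follows. Quantile normalization gave Idh3g -0.18, Ndufa10l1 -0.060, Ndufa4 -0.21, Ndufa5 -0.036, Ndufab1 -0.050, Ndufaf1 0.070, Ndufaf5 -0.085, Ndufb10 -0.060, Ndufb3 -0.26, Ndufb4 -0.083, Ndufv2 -0.024, Sdha -0.16, Sdhaf2 -0.12 and Suclg1 -0.094. The authors' deposited table gave Idh3g -0.16, Ndufa4 -0.14, Ndufaf1 0.034, Ndufaf5 -0.045, Ndufb10 -0.026, Ndufb3 -0.23, Sdha -0.068, Sdhaf2 -0.035 and Suclg1 -0.064. Removing the trend gave Idh3g -0.079, Ndufa10l1 -0.31, Ndufa4 -0.13, Ndufaf7 -0.048, Ndufb10 -0.19, Ndufb3 -0.16, Ndufb4 -0.034, Sdha -0.020 and Tmem186 -0.13. The array row, as covariate or alone, gave Ndufaf1 0.17, Ndufs1 0.067 and Sdhd 0.046. Probe averaging gave Ndufab1 -0.31 and Ndufs4 -0.041. Sdhd was 0.023 with normexp and 0.045 with median scaling, against -0.28 with quantile normalization. Leaving out 1 pup gave Ndufaf1 -0.16 to 0.0049, Ndufaf5 -0.064 to 0.17, Ndufaf7 -0.011 to 0.13, Sdhaf2 -0.077 to 0.19 and Sdhd -0.095 to 0.065.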

Other observations

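The citric acid cycle, which feeds NADH to complex I and shares complex II, had few genes that passed. Of 16 measured genes of the cycle and of pyruvate dehydrogenase, 0 rose and 1 fell (median 0.02), against 12.7% and 7.72% of all features tested. Sucla2, a succinyl-CoA ligase subunit, fell by 0.48 on the log2 scale (adjusted p = 0.0341 with limma, and 0.058 with the length and signal trend removed). Suclg1, its partner, differed by 0.39, Mdh2 by 0.36 and Idh3g by 0.33, none passing, and Suclg1 and Idh3g turned to -0.094 and -0.18 with quantile normalization. Of 8 genes for other routes of electrons into ubiquinone, 1 rose and 0 fell. Etfb, the beta subunit of the electron transfer flavoprotein, rose 1.64-fold (adjusted p = 0.0103), while its partner Etfa differed by -0.35 without passing (adjusted p = 0.0989). Dhodh, of pyrimidine synthesis, differed by 0.33 and Gpd2, of the glycerol phosphate shuttle, by -0.41, neither passing.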
